A study of Drosophila melanogaster with 4 samples.

Results

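Broad H3K4me1 domains on 3 autosomal arms of *Drosophila melanogaster* numbered 558, out of 4438 joined domains on these arms and 9680 regions in the whole list. They were chosen by measured width: neighbouring regions of the replicate-set list on 2L, 3L and 3R were joined where the gap between them was 500 bp or less, and joined domains wider than 10000 bp were kept. The members held 1128 of the 5561 regions called on these arms. H3K4me1 was mapped by chromatin immunoprecipitation (ChIP) with antibody ab8895 and sequencing. The chromatin came from head nuclei of Oregon-R flies, genotype wild type and developmental stage mixed adult. Each of the 2 ChIP libraries had its own input library, and no second genotype, tissue or treatment was included. Heads were sieved from flies of population cages, so each library pools many animals; their sex was not given in the labels. Besides the replicate-set list, the files held 1 list for each ChIP replicate, and coordinates throughout are FlyBase release 5.

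H3K4me1 is monomethylation of lysine 4 on the tail of histone H3. In flies it is placed largely by the Trithorax-related (Trr) methyltransferase complex, and it marks enhancers, whether active or poised, as well as the flanks of active promoters. Where enhancers and promoters lie close together, as around long regulatory regions of developmental genes, neighbouring marked nucleosomes can merge into wide domains. Head nuclei come from many cell types, with neurons, glia, photoreceptors, fat body and muscle among them. In such a bulk sample, a domain carried by few cells and a weak domain carried by all cells cannot be told apart.

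Width in the replicate-set list chose the members, and that list is, by its name, the authors' list for both replicates; how the libraries were combined was not stated. It cannot be taken as independent of the replicate lists, so width, score and coverage by the replicates are descriptions of the members, and no test was made on them. The number of reads behind a region was unknown. Exact (Clopper-Pearson) 95% intervals on shares of domains cover counting error over domains only. Whether the replicates are separate fly collections was not stated in the labels, and the spread between them may be technical. Genes and DNA sequence at these positions were not analysed here, since the gene table in use has release 6 positions.

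The broad domains were a small part of the domains and a large part of the mark. They made up 12.6% of the joined domains on the 3 arms and held 40.1% of the bases in called regions, which was 8.82 of 22.0 Mb. Together they spanned 8.94 Mb, or 11.9% of the 75.5 Mb of sequence. Arm 3R had the most, with 234 domains or 8.39 per Mb, followed by 3L with 175 or 7.13 per Mb and 2L with 149 or 6.48 per Mb. The share of an arm that lay in broad domains had the same order, at 13.4% on 3R, 11.4% on 3L and 10.5% on 2L.

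Most members were only moderately wider than the limit. The median width was 14.4 kb, with quartiles of 11.8 and 18.6 kb, and the arms hardly differed in it: 14.4 kb on 2L, 14.5 kb on 3L and 14.5 kb on 3R. Of the 558 domains, 112 were wider than 20 kb, 18 wider than 30 kb and 3 wider than 40 kb. At the limit itself, the 3 narrowest members were 10005, 10008 and 10012 bp wide, and the 3 widest domains left out were 9992, 9989 and 9985 bp wide. Replicates 1 and 2 covered 33.7% and 39.3% of the narrowest member, 82.5% and 94.3% of the next and 87.5% and 84.2% of the third. The corresponding values just below the limit were 92.5% and 80.6%, 88.8% and 61.1%, and 87.2% and 66.2%. Coverage did not step down at the limit in these 6 domains.

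**Figure D1:**
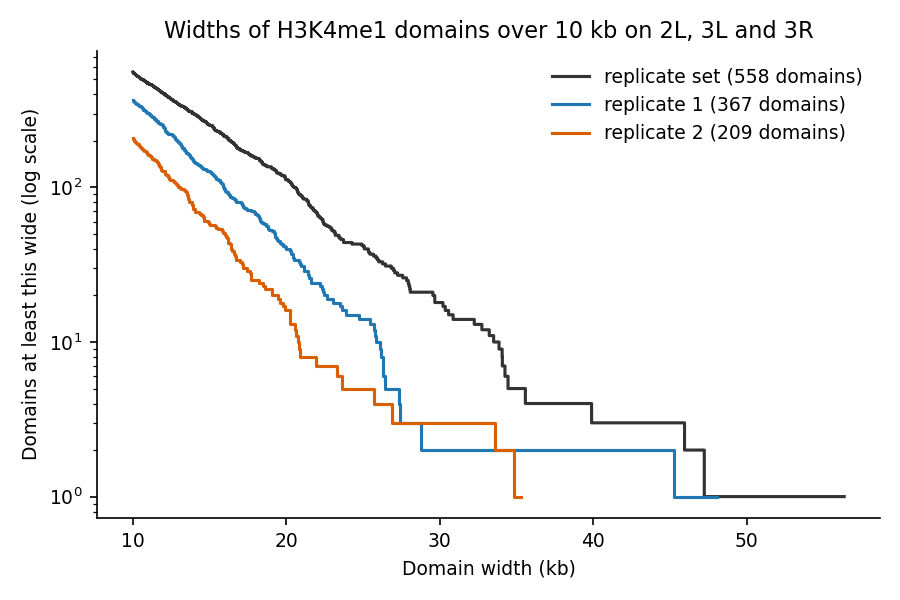
Number of H3K4me1 domains on 2L, 3L and 3R (y axis, log scale) at least as wide as the width on the x axis in kb, for domains built by the same rule from the replicate-set list, replicate 1 and replicate 2. The replicate-set curve starts at 558 domains and reaches 56.4 kb, that of replicate 1 starts at 367 and reaches 48.0 kb, and that of replicate 2 starts at 209 and reaches 35.3 kb.

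The same rule applied to each replicate alone gave fewer and narrower domains. Replicate 1 gave 367 and replicate 2 gave 209, a mean of 288.0 ± 112 (SD, n = 2). Their median widths were 13.2 and 12.9 kb, and the widest domains were 48.0 and 35.3 kb. Broad domains held 30.8% of the called bases of these arms in replicate 1 and 17.9% in replicate 2. The lists themselves were close in total called length on the 3 arms, at 17.1 and 16.0 Mb, and joining left 3642 domains of any width in replicate 1 and 4231 in replicate 2. In both replicates 3R again had the most broad domains per Mb (5.59 and 3.40), then 3L (4.64 and 2.57) and then 2L (4.22 and 2.22).

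Nearly every broad domain of a replicate lay on a member, but the replicates did not give the same ones equally. Of the replicate 1 domains 366 of 367 overlapped a member by at least 1 bp, and of the replicate 2 domains 200 of 209 did. Read from the members, 162 or 29.0% (95% interval 25.3% to 33.0%) overlapped a broad domain of both replicates. Another 194 did so in replicate 1 only, 35 in replicate 2 only, and 167 or 29.9% (26.2% to 33.9%) in neither. The last group reached 10 kb only in the replicate-set list. Those broad in both replicates had a median width of 17.8 kb and a median score of 0.93, against 12.1 kb and 0.76 for those broad in neither. Among the 112 members over 20 kb, 62 or 55.4% (45.7% to 64.8%) were broad in both. Between the replicate lists, 45.2% of the replicate 1 broad domains overlapped one of replicate 2. Of the replicate 2 broad domains, 78.9% overlapped one of replicate 1.

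The 10 widest domains lay 4 on 3R, 4 on 3L and 2 on 2L. Widest of all was 3R:11143700-11200058, which spanned 56.4 kb in 2 regions with a single break of 490 bp. Replicate 1 covered 96.7% of it in 3 regions and replicate 2 covered 90.1% in 7 regions. Second came 2L:6048457-6095700, 47.2 kb joined from 6 regions, of which the widest was 12.4 kb. Replicate 1 covered 92.6% of this domain and replicate 2 covered 77.6%. The third, 3R:12040057-12086013, was a single region of 46.0 kb in the replicate-set list, although replicate 1 had it in 4 regions and replicate 2 in 7. Its coverage of 97.4% and 91.9% was the highest among the 10 in replicate 1 and the second highest in replicate 2.

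The fourth, 3R:7033026-7072925, spanned 39.9 kb in 5 regions; replicate 1 covered 89.3% of it and replicate 2 covered 93.3%. The fifth, 3L:17554762-17590347, had the highest score among the 10, at 1.29 (the width-weighted mean of its regions). It consisted of 2 wide regions around a small one that scored 0.38, and both replicates left that stretch uncalled while covering 91.4% and 91.5% of the domain. The sixth, 3R:16910333-16944788, was again a single region, of 34.5 kb, covered to 94.9% and 86.7%.

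The other 4 of the 10 widest were 3L:536242-570497, 2L:270059-304145, 3L:1628354-1662426 and 3L:20761053-20794921. They spanned 33.9 to 34.3 kb and were joined from 4 to 6 regions each. Replicate 1 covered them to 92.0%, 81.3%, 90.5% and 82.5%, and replicate 2 to 84.8%, 78.9%, 66.4% and 82.9%. The gap between the replicates was widest in 3L:1628354-1662426. Among all 10, replicate 1 coverage was the higher in 7 and replicate 2 coverage in 3R:7033026-7072925, 3L:17554762-17590347 and 3L:20761053-20794921. The widths depended on joining: with each region taken singly, the widest region inside these domains measured from 9.83 to 49.0 kb.

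Internal breaks were common and short. Of the 558 members, 203 or 36.4% were a single region, 207 were joined from 2 regions, 99 from 3, 36 from 4, 9 from 5, 3 from 6 and 1 from 7. Thus 355 or 63.6% (95% interval 59.5% to 67.6%) had at least 1 break. This share was 71.8% on 2L, 62.3% on 3L and 59.4% on 3R. The 570 breaks had a median length of 192 bp (quartiles 84.2 and 325 bp). They took up 121 kb in all, or 1.35% of the bases in the domains. Counted without breaks, 545 of the 558 were still over 10 kb. Joining mattered in another way. Of all 558 members, 341 held a single region that was itself over 10 kb. The other 217, or 38.9%, passed the limit only as joined domains.

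Breaks were about as dense in broad domains as in the next narrower class, and sparser in domains below 5 kb. There were 0.64 breaks per 10 kb of broad domain and 0.63 per 10 kb of the 877 joined domains over 5 kb and up to 10 kb. At 2 to 5 kb the value was 0.32, and the domains of up to 2 kb had no break. None of the 4438 joined domains was under 1 kb wide, so narrow ones had little room for 2 regions and a break. The lower density below 5 kb is therefore not read as a result. In members of 20 to 30 kb the value was 0.62, and in the 18 members over 30 kb it was 0.80. The share of domains with a break rose with width, from 38.0% at 5 to 10 kb to 56.7% at 10 to 15 kb, 74.5% at 20 to 30 kb and 88.9% over 30 kb. A wider domain has more room for breaks by construction. Where a member was joined from 2 regions, the smaller one held a median of 29.3% of the bases (quartiles 18.3% and 39.7%). The domain with the most pieces was 3R:10709471-10725581, 16.1 kb in 7 regions of which the widest was 3.80 kb. Its score was low, at 0.60, and replicates 1 and 2 covered 82.8% and 57.1% of it.

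Most breaks were also uncalled in the replicates, but less so in replicate 2. Replicate 1 covered 6.79% of the break bases against 89.5% of the bases in the regions of the same domains, and replicate 2 covered 17.7% against 80.1%. Of the 567 breaks of at least 1 bp, replicate 1 left 417 or 73.5% (69.7% to 77.1%) fully uncovered, and replicate 2 left 331 or 58.4% (54.2% to 62.5%). Both replicates left 218 of them, 38.4%, fully uncovered, and 3 were fully covered by both. At least 1 replicate bridged 107 or 18.9% (15.7% to 22.3%) of the breaks completely. Short breaks were covered more: replicate 2 covered 31.1% of the bases of breaks up to 100 bp and 10.7% of those of 401 to 500 bp, and replicate 1 covered 17.0% and 4.08%.

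Each replicate cut the members into more pieces than the replicate set did. A member held a mean of 2.02 regions in the replicate-set list, 2.58 in replicate 1 and 3.00 in replicate 2, with up to 7, 8 and 9. Replicate 1 had more regions than the replicate set in 47.1% of members and replicate 2 in 65.6%. Fewer regions were found in 7.89% and 9.50% of members. A single region of replicate 1 lay in 102 members and a single region of replicate 2 in 49.

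Both replicates had called regions in all 558 members. Replicate 1 had none in 30.0% of all 4438 joined domains, and replicate 2 had none in 30.7%. At 5 to 10 kb these shares were 1.14% and 2.17%. Replicate 1 covered a median of 90.6% of a member, with quartiles of 83.2% and 95.5% and a range of 21.3% to 100%. Replicate 2 covered a median of 81.7%, with quartiles of 70.8% and 88.9% and a range of 16.9% to 100%. The mean of the medians was 86.1% ± 6.2 (SD, n = 2). Replicate 1 covered more of the member than replicate 2 did in 434 cases, or 77.8% (74.1% to 81.2%). Their coverage was moderately related across the members (Spearman rho 0.40 over 558 domains that share the same pair of libraries), and each followed the domain's score (rho 0.61 for replicate 1 and 0.57 for replicate 2).

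At a coverage of at least 50% by each replicate, 528 of the 558 members passed, or 94.6% (92.4% to 96.3%). Over all 4438 joined domains of the arms the same criterion was met by 48.9%, and among those of 5 to 10 kb by 78.7%. The members were chosen for width in a list that is not independent of the replicates, and nothing is read from the difference. Coverage of at least 90% was reached by replicate 1 in 294 members, 52.7%, against 31.6% of all joined domains and 42.3% of those of 5 to 10 kb. For replicate 2 it was reached in 121 members, 21.7%, which was close to the 21.4% of all joined domains and the 22.0% of those of 5 to 10 kb. The share with high coverage by replicate 2 was thus near the background.

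The 2 libraries left different stretches of the members uncalled, with some overlap. Replicate 1 left 11.6% of the member bases and replicate 2 left 20.8%, and 5.80% were left by both. Of the bases left by replicate 1, 50.0% were also left by replicate 2. Of those left by replicate 2, 27.9% were also left by replicate 1. The uncalled share was higher near the edges. Each member was divided into 10 equal parts. Of the bases of the parts at the ends, replicate 1 covered 75.3% and replicate 2 covered 63.3%. In the parts further in, coverage lay between 90.05% and 92.2% in replicate 1 and between 81.1% and 83.7% in replicate 2.

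Few members were poorly covered. Replicate 1 covered less than 50% of 7 members and replicate 2 less than 50% of 25, of which 2 were below 50% in both: 2L:10468794-10482151 and 3R:26346282-26356286, named after their values were seen. Lowest in replicate 1 were 3L:11521322-11531469 at 21.3%, 2L:14400585-14412046 at 32.4% and 3R:26346282-26356286 at 33.7%. Replicate 2 covered these to 57.7%, 55.5% and 39.3%. Lowest in replicate 2 were 3L:962524-972619 at 16.9%, 3R:27644423-27654665 at 18.0% and 2L:11001897-11012593 at 23.6%. Replicate 1 covered these to 53.4%, 70.4% and 87.3%. All 6 were under 11.5 kb wide, and their scores lay between 0.48 and 0.69, below the lower quartile of all members.

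The replicate edges lay mostly just inside the domain edges. Over the 1116 edges, the first called base of replicate 1 was a median of 126 bp inside the edge (quartiles 24.0 and 468 bp), and that of replicate 2 a median of 296 bp inside (quartiles 11.8 and 1078 bp). Within 500 bp of the edge, on either side, lay 75.2% of the edges of replicate 1 and 57.0% of those of replicate 2. Replicate regions reached beyond the domain at 19.1% of edges in replicate 1, by up to 839 bp, and at 23.1% in replicate 2, by up to 8103 bp. At 2.4 to 2.5 kb inside the edge, replicate 1 covered 89.5% of the edges and replicate 2 covered 82.1%. Joined domains of 5 to 10 kb had lower values at the same distance, which is close to their centres: 86.1% and 78.2%.

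**Figure D2:**
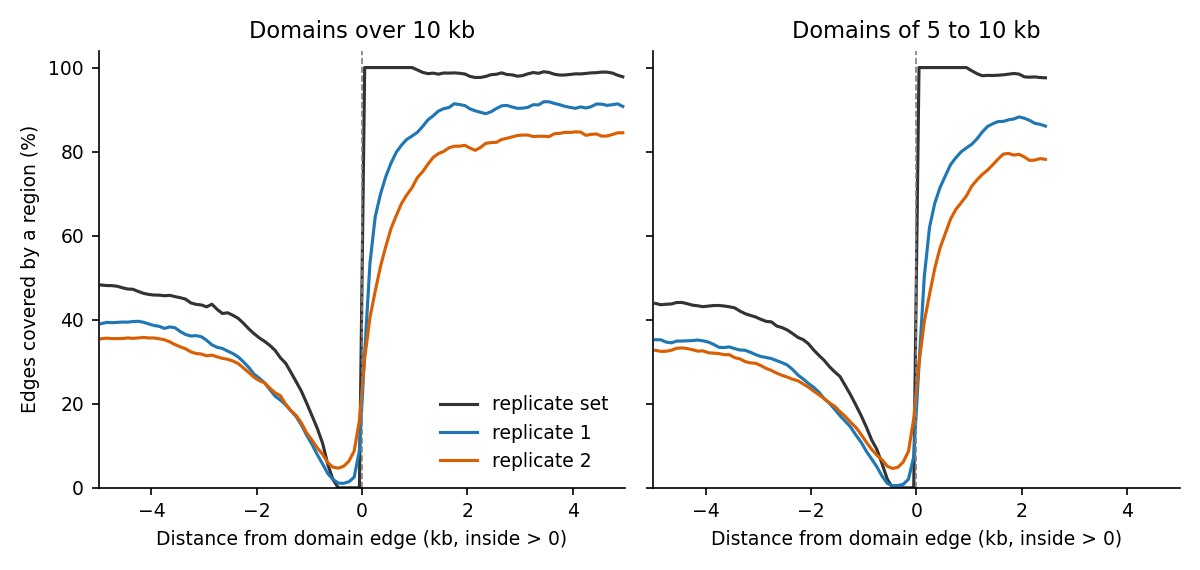
Share of domain edges (%) covered by a called region of the replicate set, replicate 1 or replicate 2 against distance from the edge in kb (bins of 100 bp, positive inside), for the 1116 edges of broad domains and the 1754 edges of joined domains of 5 to 10 kb. The replicate set is at 100% just inside and 0% just outside the edge by construction, and the replicates rise from 32.1% (replicate 1) and 30.8% (replicate 2) in the first 100 bp inside to 90.7% and 84.5% at 5 kb inside broad domains.

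The score, the authors' enrichment value of unstated scale, was high in broad domains but nearly flat in width among them. The width-weighted score of a member had a median of 0.87 (quartiles 0.77 and 0.95, range 0.48 to 1.42). The median rose from 0.43 in joined domains of up to 2 kb to 0.56 at 2 to 5 kb, 0.74 at 5 to 10 kb and 0.85 at 10 to 15 kb, and was 0.87, 0.90 and 0.89 in the wider classes. Across domains, which are not independent replicates, the Spearman rho of width and score was 0.66 up to 10 kb and 0.16 among the members. The highest-scoring members were 3L:20996442-21008618 at 1.42, 2L:16264767-16287182 at 1.40 and 3R:3129853-3141191 at 1.37. Each was a single region, 12.2, 22.4 and 11.3 kb wide, and also a single region in both replicates, which covered 89.1% to 99.8% of it.

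Most of the strongest regions lay outside the broad domains. The part in members was above their 20.3% share of the regions and below their 40.1% share of the called bases. Of the 100 highest-scoring replicate-set regions on these arms, all at or above 1.15, 36 (95% interval 26.6 to 46.2) lay in members, and their median width was 10.9 kb. The other 64 had a median width of 5.43 kb. Over all regions, the median score was higher in members, with a value of 0.82 for the 1128 regions in members and 0.51 for the 4433 outside. In replicate 1 the median was 0.82 for 1440 regions that overlapped members and 0.66 for 3081 that did not. In replicate 2, whose scores are not on the same level as those of replicate 1, it was 1.22 for 1675 and 0.99 for 3380.

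**Figure D3:**
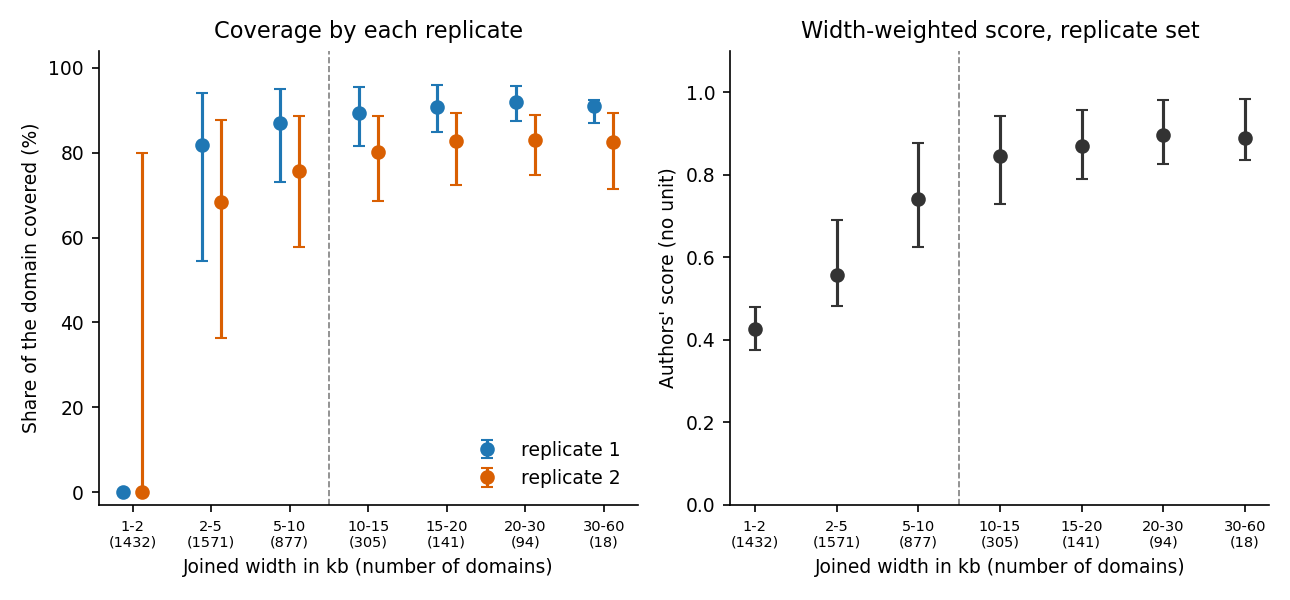
Left, share of a joined domain (%) covered by replicate 1 and replicate 2; right, width-weighted score (no unit) of the replicate set; both by class of joined width in kb, as median (point) and quartiles (bars), with the number of domains in each class. Right of the dashed line at 10 kb, medians stay between 89.4% and 92.0% in replicate 1, 80.2% and 83.1% in replicate 2, and 0.85 and 0.90 in score.

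Pieces of 1 domain differed in score. In the 355 members with a break, the range from the lowest-scoring to the highest-scoring region had a median of 0.27 and reached 1.28. Neighbours across a break differed by a median of 0.20. The widest region was also the highest-scoring one in 244 of the 355, or 68.7% (63.6% to 73.5%). In the 148 members of 3 or more regions, the 215 inner regions had a median score of 0.80 and the 296 end regions a median of 0.66, with similar median widths of 4.53 and 4.11 kb. The mean score of the inner regions was above that of the ends in 105 of the 148, or 70.9% (62.9% to 78.1%). Domains built from replicate 1 alone gave inner and end medians of 0.84 and 0.79, with the inner mean higher in 75 of 119, or 63.0% (53.7% to 71.7%). In those from replicate 2 alone the medians were 1.28 and 1.26, with the inner mean higher in 43 of 80, or 53.8% (42.2% to 65.0%). The higher score of inner regions was thus least clear in replicate 2. Whether these shares differ from an even split was not tested, since the domains are not replicates.

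The members were spread unevenly along the arms. In the 74 full windows of 1 Mb, a window held a median of 7.5 members, from 0 to 17, with a mean of 7.42 ± 3.72 (SD over windows). The 19 windows with at least 10 members held 233, or 42.4% of those in full windows. The count followed the share of the window in called regions of any width, members included (Spearman rho 0.87 over the 74 windows). Members held 40.1% of the called bases on the arms, so part of this relation is built in. Whether the unevenness is particular to broad domains was not tested, since narrower domains were not examined alone. Windows on 3R held from 3 to 15, and none was empty. Each of 2L and 3L had 1 empty window, the full one nearest the centromere. Called regions of any width were also sparse there, with 6.68% of the 2L window and 1.81% of the 3L window covered by the replicate set. No member lay in the last 1376 kb of 2L or the last 1706 kb of 3L, at the centromeric ends of these arms. On 3R, whose centromeric end is at the start of the sequence, the first member began at 45.0 kb, and the last ended 5.35 kb from the telomeric end.

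The richest window of 3L was its first Mb, at the telomeric end. It held 17 members from 10.1 to 34.3 kb wide, which together spanned 272 kb. The members there were not alike: 3L:690096-706332 was covered to 98.6% and 99.0% by the replicates, and 3L:962524-972619 to 53.4% and 16.9%. The first Mb was also the richest window of 2L, with 14 members of 10.0 to 34.1 kb that spanned 234 kb. On 3R the richest window ran from 20.0 to 21.0 Mb and held 15 members, the widest of 20.8 kb, over 221 kb. Called regions of all widths covered 45.0%, 40.4% and 42.2% of these windows of 3L, 2L and 3R in the replicate set, 37.8%, 33.3% and 36.0% in replicate 1, and 35.0%, 30.7% and 30.9% in replicate 2. Over the 3 arms as a whole, those of the replicate set covered 22.0 of 75.5 Mb.

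**Figure D4:**
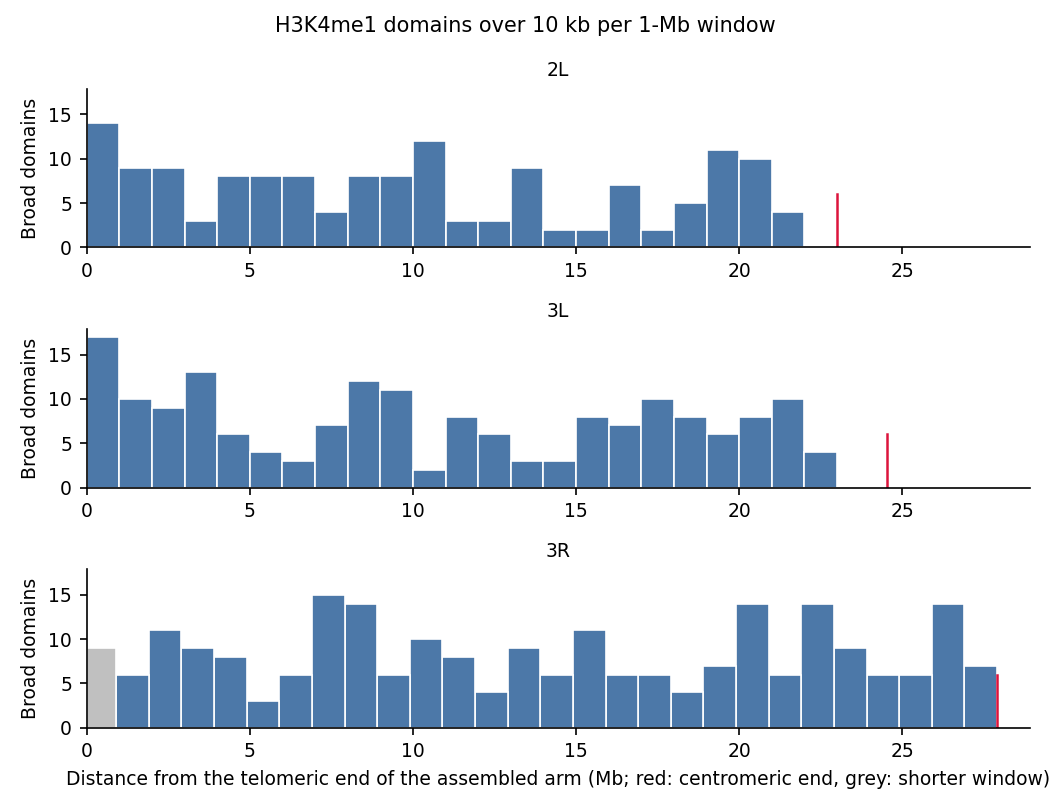
Number of broad domains per 1-Mb window (bars, by the domain's midpoint) against distance in Mb from the telomeric end of the assembled arm on 2L, 3L and 3R; the grey bar is a window shorter than 1 Mb and the red line the centromeric end of the sequence. The first window of 3L holds 17 domains and that of 2L holds 14, whereas the windows nearest the centromere are empty on 2L and 3L but hold 7 on 3R.

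Neighbouring members were often close. Over the 555 gaps between neighbours on an arm, the median was 42.3 kb, with quartiles of 11.0 and 159 kb. Of these gaps 133 or 24.0% (20.5% to 27.7%) were 10 kb or less, and 22 were 1 kb or less and so just above the joining limit. Gaps over 100 kb made up 33.5%. Linking members across gaps of up to 10 kb left 321 alone and placed 237, or 42.5% (38.3% to 46.7%), in 104 chains, of which 25 held 3 or more. For comparison, 30.6% of the joined domains of 5 to 10 kb had a member within 10 kb, as did 24.3% of all joined domains. The chain with the most members was 3R:1368675-1452474, with 5 members of 10.1 to 16.3 kb within 83.8 kb. The replicate set covered 85.8% of its bases, replicate 1 covered 74.6% and replicate 2 covered 74.2%. The longest was 3L:9410502-9504543, with 4 members of 14.9 to 27.6 kb within 94.0 kb, covered to 81.0% and 68.5% by the replicates. Chains were named after their values were seen.

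The surroundings of broad domains were also rich in called regions. In the 50 kb on either side of a member, the replicate set covered a median of 42.2% of the bases. Replicate 1 covered 34.5% and replicate 2 covered 31.1%. For joined domains of 5 to 10 kb these medians were 37.4%, 29.1% and 26.8%, and for those of up to 2 kb they were 27.9%, 19.9% and 18.6%. The median distance from a member to the nearest other member was 15.2 kb. It was 24.8 kb from a joined domain of 5 to 10 kb and 51.1 kb from one of up to 2 kb. Both measures share the list that set the widths.

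Apart from the centromeric ends of 2L and 3L given above, the longest gap between neighbouring members on each arm, chosen after its values were seen, was 3R:8832974-9794603 at 962 kb, 2L:15341673-16249882 at 908 kb and 3L:9898835-10658571 at 760 kb. These gaps were not empty of the mark. On 3R the gap held 64 narrower joined domains and was covered to 23.7% by the replicate set, 18.1% by replicate 1 and 17.7% by replicate 2. On 2L it held 26, with coverage of 8.74%, 5.26% and 7.87%. On 3L it held 35, with coverage of 14.0%, 8.04% and 10.3%. The gap on 3R thus held the most domains of the 3, none of them over 10 kb.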

How the data were processed

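The authors deposited 3 lists of H3K4me1-enriched regions, 1 for each ChIP replicate and 1 for the replicate set. Bowtie 0.12.7 is the aligner named by the submitters' processing notes. Caller, threshold and filters are not given in the sources used here. The genome is FlyBase release 5, per the file headers, and coordinates are 1-based. Column 6 holds an enrichment score deposited by the authors, with no stated scale; it was used to rank and describe regions within 1 list. No read totals are given, so depth and its effect on precision are unknown. Arm lengths came from the file headers.

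From these lists, regions were joined, domain widths, breaks, gaps and coverage were counted base by base, and domain scores were averaged with region widths as weights (Python 3.11.15, numpy 2.4.6, pandas 2.3.3, scipy 1.17.1). Joining and coverage were checked on simulated regions against a base-by-base count. Windows of 1 Mb took a domain by its midpoint. Sample groups follow the labels. The input libraries have no list of their own here.

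The domains and the measures were chosen with earlier results of these data known. Named domains are the 10 widest; per arm the widest, highest-scoring and most divided domain and members of the richest window; the 3 least covered by each replicate; and the 3 on each side of the limit. Alternatives covered the joining gap, the width limit, the higher-scoring 50% of regions, each replicate alone and the coverage required; widths of the 10 widest domains and widths without breaks were added after seeing the data.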

Additional observations from a re-analysis of the deposited data

How the results depend on the processing

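No value changed direction, since none is a contrast; values were compared with the spread between the replicates (1 SD), and counts with a factor of 1.5. Of 85 alternative values for the main measures 47 stayed within these bounds and 38 did not. For the score the bound was 0.38, from replicate lists whose scores are not on the same level, so staying within it says little. Where the bound was an SD between the replicate lists, single-replicate values were judged by a spread made from those same values. The tally is therefore a description and not a measure of stability. The causes were not tested beyond what each alternative does by construction. No paired analysis was possible because the labels give a single ChIP condition and the input libraries have no list here.

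The number of broad domains fell from 558 to 349 without joining and to 253 above 15000 bp, rose to 656 and 748 with gaps of 1000 and 2000 bp and to 795 above 8000 bp, and lay between 209 and 367 in the lists of single replicates. The median width was 13.2 kb without joining, 13.8, 15.2 and 16.9 kb with gaps of 250, 1000 and 2000 bp, 12.1 and 19.4 kb with limits of 8000 and 15000 bp, and 12.9 to 13.2 kb in single replicates. The percent of called bases in broad domains was 22.9 without joining, 50.3 and 62.9 with gaps of 1000 and 2000 bp, 49.5 and 23.5 with the 2 limits, and 17.9 to 30.8 in single replicates. With a gap of 2000 bp, the median coverage fell to 81.4% by replicate 1 and 71.9% by replicate 2. Domains covered to at least 50% by each replicate numbered 335 without joining and 252 above 15000 bp, and 87 of the 558 were covered to at least 90% by each.

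The percent of domains with a break was 48.0, 79.7 and 90.2 with gaps of 250, 1000 and 2000 bp, 71.9 above 15000 bp, 49.9 for the higher-scoring 50% of regions, and 69.8 to 79.4 in single replicates. The median gap between neighbouring broad domains, 42.3 kb, was 153 kb above 15000 bp and 80.4 to 208 kb in single replicates. The median score was 0.91 to 1.44 in single replicates. In domains of 3 or more regions, the middle of the highest-scoring region lay at 0.64 of the way from the edge to the centre (median); this was 0.61 and 0.54 with gaps of 1000 and 2000 bp, 0.60 for the higher-scoring 50%, and 0.54 to 0.59 in single replicates.

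Joined across gaps of up to 250 bp, the widest pieces of the 10 widest domains measured 16.3 to 49.0 kb. In replicate 1 alone 9 of the 10 and in replicate 2 alone 8 of the 10 still held a domain over 10 kb.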
